A study of Mus musculus with 12 samples.

Results

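The nuclei described here were chosen as parvalbumin interneurons by their raw counts of unique molecular identifiers (UMIs, 1 per captured RNA molecule). A nucleus was a member if it held 500 to 10000 detected genes, at least 1 UMI of Gad1 or Gad2, at least 1 of Pvalb, at least 1 of Lhx6 or Erbb4, no UMI of Sst, Slc17a7, Slc17a6 or Rgs9 and fewer than 2 of Mobp. The rule found 939 members among 184957 retained nuclei of 12 single-nucleus RNA-seq libraries. The marker genes did not bear out the name for most of them: Lhx6 was detected in 103 of the 939 members, and most members grouped by Six3, Meis2 and Isl1 or by other genes. They are therefore called Pvalb-positive inhibitory nuclei below.

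The libraries were made from the left hippocampus of female mice, 1 library per mouse, with sorted nuclei and 10x Genomics 3′ chemistry. The 3xTg-AD mice carry the transgenes APPSwe and tauP301L and a knock-in allele on a mixed B6;129 background, and the WT mice were littermates without them. There were 3 mice per genotype at 6 months (3xTg-AD replicates 1, 5 and 9; WT replicates 3, 7 and 11) and 3 per genotype at 12 months (3xTg-AD replicates 2, 6 and 10; WT replicates 4, 8 and 12). The transgenes of this line are driven by Thy1 regulatory sequence, which is active in many but not all neurons, and human transgene RNA has no gene of its own in the mouse reference. Libraries held 79177051 to 128323908 UMIs, and the summed members of a library 621833 to 1511247. No member barcode was shared as a member between libraries, although 4216 barcodes occurred in over 1 library.

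Parvalbumin is a calcium-binding protein of fast-spiking GABA neurons. In the hippocampus these are basket, chandelier and bistratified cells, which arise in the medial ganglionic eminence under the transcription factor Lhx6, carry the neuregulin receptor ErbB4 and time the firing of pyramidal cells. Parvalbumin is also made by GABA neurons elsewhere, such as those of the thalamic reticular nucleus, the globus pallidus and the septum, so Pvalb alone does not name a cell.

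Each step of the rule reduced the nuclei as follows. Of the 184957 retained nuclei, 63424 held a Gad1 or Gad2 UMI and 2509 of these a Pvalb UMI. A UMI of Lhx6 or Erbb4 left 1848, the absence of Sst 1356, the absence of vesicular glutamate transporters 1141, the absence of Rgs9 989 and the Mobp limit 939. Erbb4 was detected in 97.6% of the members, so that the Lhx6 or Erbb4 step was met mainly through Erbb4. Gad1, which makes GABA, was found in 85.8% and Gad2 in 91.2%.

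Pvalb itself was sparse, with 1401 UMIs over the members. A single Pvalb UMI carried 640 members, 186 held 2 and 113 held 3 or more, while 17266 nuclei met every other step with no Pvalb UMI. The median depth was 9121.5 UMIs for members with 1 Pvalb UMI, 11290 for those with 3 or more and 6506 for the nuclei with none. Among nuclei that passed the other steps, 5.16% held a Pvalb UMI (exact 95% interval 4.84 to 5.49%). The share was 0.389% (0.308 to 0.484%) in nuclei with oligodendrocyte markers at a median of 2194 UMIs, 0.641% (0.464 to 0.863%) in nuclei with astrocyte markers at 2888 UMIs and 3.27% (2.87 to 3.72%) in nuclei with excitatory markers at 10713.5 UMIs. It was 1.30% (0.355 to 3.29%) in Vip nuclei, and 17.6% (16.0 to 19.2%) in somatostatin nuclei before any Pvalb limit, at a median of 7932 UMIs. The share in somatostatin nuclei was thus above that in the nuclei of the rule, and the Vip, excitatory and glial sets lay below it. Nuclei just outside the other limits numbered 171 with 1 Sst UMI, 82 with 1 transporter UMI, 91 with 1 Rgs9 UMI and 19 with 2 Mobp UMIs. These intervals cover counting error only.

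Clustering of the members alone gave 14 clusters, which fell into 4 kinds. The genes that formed the clusters are a description and were not tested. The kinds were clusters with Six3 in at least 50% of nuclei, clusters with Sox6 and Maf, clusters with glial markers, and the rest.

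The Six3 clusters were the first large kind, with 389 nuclei (41.4% of members) in 5 clusters. Six3 was found in 75.8% of them, Meis2 in 96.7% and Isl1 in 58.1%, all transcription factors of the ventral forebrain, and Lhx6 in 0 of 389, which allows a share of up to 0.771% by counting error. Of these, 3 clusters with 135, 62 and 57 nuclei were reticular thalamic neuron-like by the marker list used (Six3, Ecel1, Spp1, Isl1, Meis2 and Lhx1), and 2 with 78 and 57 nuclei stayed unnamed. The named clusters passed on 3, 4 and 4 of these 6 markers, each with Six3, Isl1 and Meis2, and with Ecel1 added in the cluster of 62 nuclei and Spp1 in that of 57. Lhx1 passed in none of the 3 and was found in 1.48, 0 and 5.26% of their nuclei. The unnamed cluster of 57 nuclei also passed on Six3, Isl1 and Meis2, but its leading genes included Vcan, a marker of oligodendrocyte precursors. The other precursor markers listed were rare there, with Pdgfra in 3.51%, Cspg4 and Olig1 in 1.75% each and C1ql1 in 0% of nuclei. In that cluster 0% of nuclei were marked as doublets. The Six3 clusters together held the highest mean Pvalb, at 1.79 UMIs per nucleus. The potassium channel genes Kcnc1 and Kcnc2, which allow fast firing, were detected in 85.6% and 90.0%.

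The Sox6 and Maf clusters were a smaller kind of 100 nuclei (10.6%) in 2 clusters. Sox6, which acts after Lhx6 in these interneurons, was found in 97% and Maf in 89%, Lhx6 in 50%, and Six3 in 1%. The larger of the 2 clusters, with 88 nuclei, was medial ganglionic eminence interneuron-like with all 6 markers of that list, among them Lhx6, Sox6, Satb1, Nxph1 and Maf. The other, with 12 nuclei, stayed unnamed, and held Satb1 in 2 and Syt2 in 1 of its nuclei. Kcnc2 stood at 2765 CPM (UMIs of the gene scaled to a common total per set of nuclei) here, against 639 CPM in the Six3 clusters. Cox6a2, a mitochondrial subunit that marks fast-spiking cells, was detected in 21% against 2.31%, and Tac1, which encodes substance P, in 20% against 2.06%. Of the other genes listed for fast-spiking cells, Kcnc1 stood at 480 CPM against 170 to 369 CPM in the single Six3 clusters. Plcxd3 stood at 381 CPM against 26.1 to 159 CPM, and Tmem132c, at 148 CPM, lay within their range of 82.0 to 241 CPM. Further genes of fast-spiking cells were level or went the other way. Syt2, the calcium sensor of fast transmitter release, was detected in 59% against 50.1% and stood at 142 against 154 CPM, a direction that turned in the 88 nuclei of the named cluster alone (65.9% of nuclei, 160 CPM). The neurofilament gene Nefm was detected in 21% against 42.9% and the sodium channel subunit gene Scn4b in 9% against 13.9%.

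The other clusters held 391 nuclei (41.6%). The largest, with 187 nuclei, was led by Tcf7l2, a transcription factor of the thalamus and midbrain, and had Gata3 in 25.7%. A cluster of 108 nuclei was led by Rreb1 and had Foxp2 in 44.4% and Gata3 in 31.5%. A cluster of 65 nuclei was led by Lhx8, Megf10 and Gbx1 and had Lhx6 in 67.7%, Sox6 in 75.4%, Satb1 in 40% and Maf in 9.23%. Lhx6, Sox6 and Satb1 met the limit of 3 markers of the medial ganglionic eminence list, but the name was not given. Erbb4 was also found in 67.7% of that cluster. Lhx8 and Gbx1 are transcription factors of ventral forebrain and septal neurons. These 3 clusters stayed unnamed, as did 2 small ones of 18 and 13 nuclei.

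The clusters with glial markers held 59 nuclei (6.28%), 79.7% of which were marked as doublets, that is droplets with 2 nuclei, against 0.514% in the Six3 clusters. Over all members 67 were marked as doublets.

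**Figure D1:**
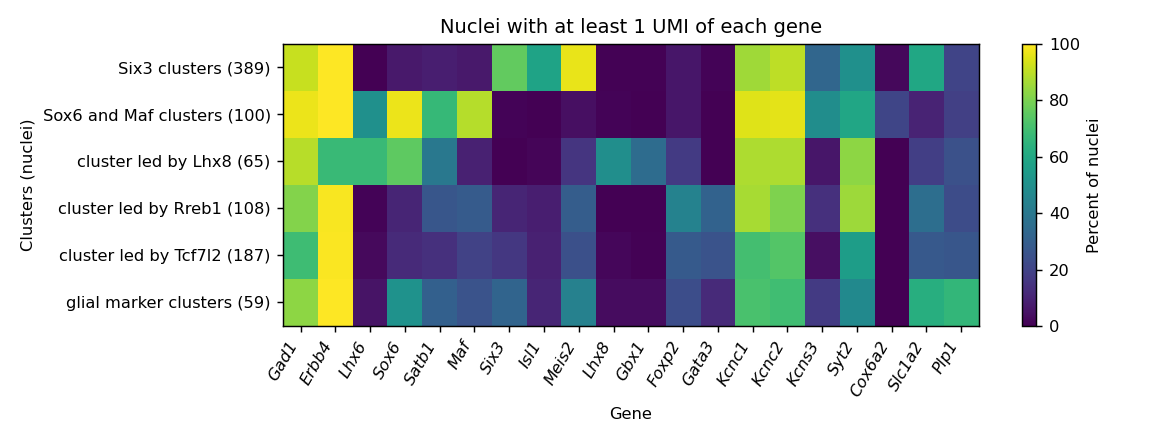
Percent of nuclei with at least 1 UMI of each gene (columns) in 6 sets of clusters of the Pvalb-positive inhibitory nuclei (rows, with their number of nuclei), on a colour scale from 0 to 100%; other clusters of 18 and 13 nuclei are not drawn. Lhx6, Sox6 and Maf are seen together in the 100 nuclei of the Sox6 and Maf clusters, while the 389 nuclei of the Six3 clusters have Six3 in 75.8% and Lhx6 in 0%.

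The kinds were found in nearly every library. The Six3 clusters made up 34.4 to 49.3% of the members of a library and the glial-marker clusters 3.61 to 13.1%. The Sox6 and Maf clusters made up 6.94 to 15.6% in 11 libraries, and WT replicate 3 at 6 months had 0 such nuclei among 109 members, which allows a share of up to 2.75%. That library had the most members and the most nuclei of the other clusters, 60.

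**Figure D2:**
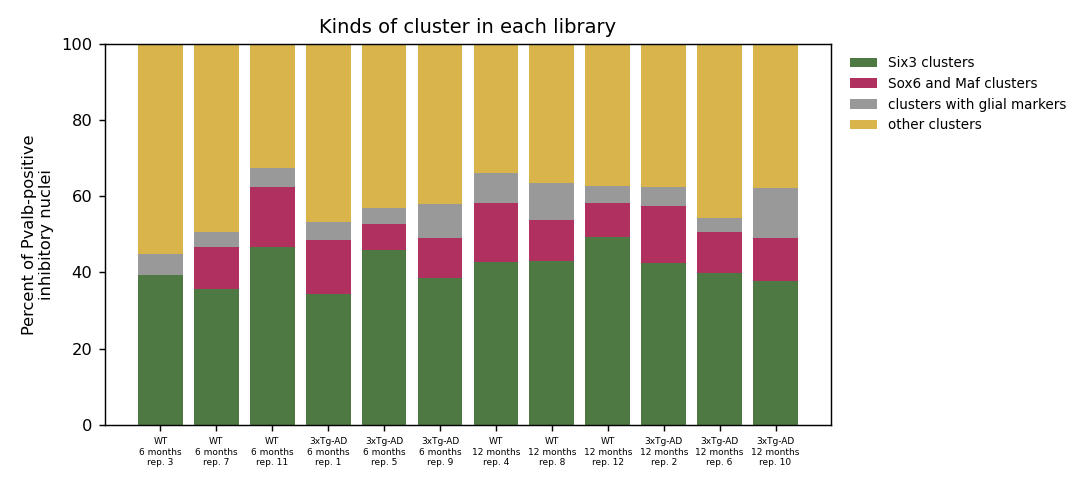
Percent of the members of each library (bars, 12 libraries) that fell into the 4 kinds of cluster. Six3 clusters make up 34.4 to 49.3% in each library, and WT replicate 3 at 6 months has no nucleus of the Sox6 and Maf clusters.

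The first comparison asked whether the share of these nuclei differed with genotype or age. At 6 months the members were 0.452, 0.455 and 0.319% of the retained nuclei of 3xTg-AD mice (replicates 1, 5 and 9) and 0.899, 0.457 and 0.488% in WT (replicates 3, 7 and 11). At 12 months they were 0.531, 0.528 and 0.308% in 3xTg-AD (replicates 2, 6 and 10) and 0.571, 0.703 and 0.590% in WT (replicates 4, 8 and 12). At each age the 3 3xTg-AD libraries lay below the 3 WT libraries, by as little as 0.457 against 0.455% at 6 months. The 6-month groups overlapped when nuclei were thinned to 2000 UMIs, with 0.117 to 0.203% in 3xTg-AD and 0.143 to 0.267% in WT (exact permutation p = 0.4), and the 12-month groups then also overlapped (exact permutation p = 0.2). As a share of inhibitory nuclei the 6-month groups overlapped too, with 0.914 to 1.77% in 3xTg-AD and 1.34 to 2.95% in WT (exact permutation p = 0.5). The 12-month groups then lay apart, with 1.21 to 1.54% against 2.44 to 3.10% (exact permutation p = 0.1). Over both ages this share differed by -0.938 points (exact permutation p = 0.0281, adjusted p = 0.141). With thinned nuclei the difference over both ages was -0.0823 points (exact permutation p = 0.0433, adjusted p = 0.216).

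Over both ages the share was 0.432% ± 0.0982 (SD, n = 6) in 3xTg-AD and 0.618% ± 0.163 (SD, n = 6) in WT, a difference of -0.186 percentage points (two-sided exact permutation test, p = 0.0281). The difference did not pass correction over the 5 share tests (adjusted p = 0.141). At each age alone, 3 against 3 libraries cannot give a p below 0.1, which was reached at 6 and at 12 months (difference -0.206 and -0.166 points). Without replicate 3 the difference at 6 months was -0.0638 points (exact permutation p = 0.4), and without replicate 10 that at 12 months was -0.0917 points (exact permutation p = 0.2). The age difference was 0.0271 points (exact permutation p = 0.801), and the change of the genotype difference with age was 0.0404 points (exact permutation p = 0.9). Members with at least 2 Pvalb UMIs differed by -0.106 points (exact permutation p = 0.00649, adjusted p = 0.0325). This was 1 of several alternative settings, and the adjustment covers only the 5 tests within it. Such members made up 47.3% of the nuclei of the Six3 clusters and 42% of the Sox6 and Maf clusters. They made up 18.6% of the clusters with glial markers and 15.9% of the other clusters. Members with an Lhx6 UMI differed by 0.00185 points in the other direction (exact permutation p = 0.924). Without replicate 1, 3, 5, 9 or 10 the p of the genotype difference was 0.0519 to 0.0671 (exact permutation). Fewer such cells and less Pvalb RNA per nucleus cannot be told apart in this count. The count also pools the kinds of cluster, with 41.4% of members in the Six3 clusters and 10.6% in the Sox6 and Maf clusters. The part of each kind in the genotype difference was not tested.

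**Figure D3:**
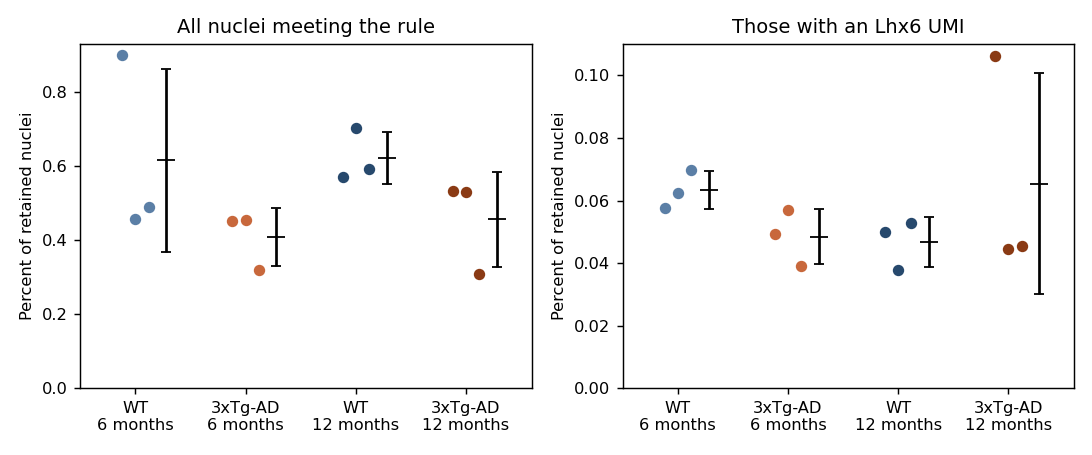
Percent of retained nuclei per library (points, 3 per group) that met the rule (left) and that also held an Lhx6 UMI (right), with mean and SD as bars. On the left the 3xTg-AD points lie below the WT points at each age, and on the right 1 3xTg-AD library of 12 months stands apart at 0.106%.

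App, Mapt and Thy1, genes whose sequence the transgenes carry, were then read in the members. They were counted as mouse genes, so that they do not check the genotype labels. They had log2 fold changes from -0.10 (Mapt) to 0.10 (App) at 6 months and from -0.03 (Thy1) to 0.07 (Mapt) at 12 months, and none was called.

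UMIs were then summed over the members of each library and compared between genotypes with edgeR, 3 libraries against 3. Calls needed an adjusted p below 0.05 together with a log2 fold change beyond 0.2 in either direction. Of 8710 genes tested at 6 months, 11 were called (0.126%), 3 higher (0.0344%) and 8 lower (0.0918%) in 3xTg-AD, and 506 had an unadjusted p under 0.05. Without replicate 5 the count was 7, all among the 11. Rnf152, AC149090.1, Ush1c, Cfap54, Gm17167 and Pla2g4e were called without each library in turn. Gm49980 was lost without replicate 5 and Abca6 without replicate 1, 5 or 7. Oser1 was lost without replicate 5, 7, 9 or 11, Zfp943 without replicate 1, 7, 9 or 11 and Serhl without replicate 1, 5, 7, 9 or 11 (edgeR adjusted p = 0.054 to 0.21 over these losses). The libraries of the 2 genotypes did not overlap for any of the 11, which was also so for 11.5% of all genes tested. With DESeq2 the calls of Oser1, Gm49980, Abca6, Serhl and Zfp943 were lost (DESeq2 adjusted p = 0.0503 to 0.445).

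Rnf152, a lysosomal ubiquitin ligase that restrains mTORC1 (chromosome 1, 105276914 to 105356710, minus strand), was higher in 3xTg-AD at both ages. It held 314, 335 and 293 CPM in 3xTg-AD and 81.4, 75.8 and 70.3 CPM in WT at 6 months, a log2 fold change of 2.06 ± 0.13 (SE; edgeR adjusted p = 3.2e-07). At 12 months it held 225, 317 and 229 CPM against 112, 94.5 and 77.8 CPM, a log2 fold change of 1.46 ± 0.17 (SE; edgeR adjusted p = 2.7e-05). All 6 3xTg-AD libraries lay above all 6 WT libraries.

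Cfap54, a gene of motile cilia (chromosome 10, 92775619 to 93081618, minus strand), was lower at both ages. It held 11.1, 33.5 and 25.7 CPM in 3xTg-AD and 95.9, 90.2 and 127 CPM in WT at 6 months, a log2 fold change of -2.12 ± 0.26 (SE; edgeR adjusted p = 0.00091). At 12 months it held 27.9, 22.4 and 15.8 CPM against 99.0, 164 and 191 CPM, a log2 fold change of -2.70 ± 0.24 (SE; edgeR adjusted p = 1.7e-07). Rnf152 and Cfap54 were the 2 genes called at both ages.

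The genotype differences were also found outside the members, in nuclei of the same mice. Of the 11 genes called at 6 months, 11 were also called in the nuclei that are no members, in the same direction, where 1.26% of all genes tested were called. In the somatostatin nuclei 5 of the 11 were called (0.125% of all genes tested), and the 9 that could be tested there went the same way. The test of the difference from the nuclei that are no members called 1 of the 11 with edgeR at an adjusted p below 0.05, Pla2g4e (0.139% of all genes tested were called), and 7 had an unadjusted p under 0.05, beside 4.22% of all genes. The same test against the somatostatin nuclei called 0 of the 11, and 4 had an unadjusted p under 0.05, beside 4.61% of all genes. The 11 genes were chosen by their difference in the members, and both tests use the same counts of the members. That choice alone favours a larger difference in the members, so the shares over all genes are no fair measure for them. Rnf152 stood at 238, 245 and 218 CPM against 64.8, 60.9 and 45.4 CPM in the somatostatin nuclei at 6 months. For Cfap54 the 12-month difference was larger in the members than in the nuclei that are no members, by -1.19 on the log2 scale (edgeR adjusted p of the difference = 5.0e-05, library as a block). Against the somatostatin nuclei, which met the same rule with Sst present and Pvalb absent, it differed by -0.99. That difference did not pass the test (edgeR adjusted p = 0.55).

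The other genes higher at 6 months were Ush1c and Oser1. Ush1c, a scaffold protein of hair-cell stereocilia (chromosome 7, 46195350 to 46238503), held 24, 23 and 14 UMIs in 3xTg-AD and 1, 0 and 1 UMIs in WT. The pooled ratio was 42.1 (exact 95% interval 11.2 to 356; edgeR adjusted p = 0.00023). This exact interval and those of the ratios given below cover counting error only, not the spread between mice. At 12 months Ush1c held 20, 23 and 30 UMIs in 3xTg-AD and 0, 0 and 56 UMIs in WT, where replicate 12 alone was high. The mice had a mixed B6;129 background, and whether the differences in Ush1c, AC149090.1 and Pla2g4e followed the transgenes or other loci that differ between mice was not tested. Oser1, an oxidative-stress responsive gene, was higher by a log2 fold change of 2.11 ± 0.38 (SE; edgeR adjusted p = 0.028), with 19.7, 33.5 and 37.0 CPM against 8.602, 4.81 and 5.98 CPM.

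The genes lower at 6 months were AC149090.1, Cfap54, Gm17167, Pla2g4e, Gm49980, Abca6, Serhl and Zfp943. Gm17167 was not detected in the 6 3xTg-AD libraries and held 35, 18 and 15 UMIs in WT at 6 months. It was at least 16.4-fold lower against a floor of 3 UMIs over the group, and at least 14.4-fold lower at 12 months, where WT held 22, 20 and 7 UMIs. Gm49980 held 1 UMI in 3xTg-AD and 64 in WT over the 3 libraries of 6 months (ratio 46.3, exact 95% interval 8.03 to 1859). Serhl held 3 against 53 UMIs (ratio 12.8, exact 95% interval 4.15 to 64.0). Pla2g4e, a phospholipase that makes N-acyl phospholipids, fell by 2.26 on the log2 scale (edgeR adjusted p = 0.0026). Abca6, a lipid transporter, fell by 3.17 (edgeR adjusted p = 0.0073).

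The interaction of genotype and age called 2 of 9498 genes (0.0211%), AC149090.1 and Zfp943, with edgeR over all 12 libraries; 0 were called with DESeq2. Without 1 library at a time, AC149090.1 stayed called in 6 of 12 fits and Zfp943 in 3 of 12. AC149090.1 held 145, 185 and 151 CPM in 3xTg-AD and 609, 748 and 934 CPM in WT at 6 months. At 12 months it held 436, 423 and 799 CPM in 3xTg-AD and 671, 176 and 462 CPM in WT, where the groups overlapped. The change of the log2 fold change was 2.54 ± 0.43 (SE; edgeR adjusted p = 0.031). Zfp943, a zinc finger gene, held 7.39, 16.1 and 9.65 CPM in 3xTg-AD and 34.4, 49.3 and 40.4 CPM in WT at 6 months. At 12 months it held 26.6, 27.8 and 28.4 CPM against 21.4, 15.6 and 17.1 CPM, and the change was 2.46 ± 0.43 (SE; edgeR adjusted p = 0.031). The interaction count was 0 without replicate 1, 9, 10, 11 or 12 and 1 without replicate 2, 5 or 6.

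At 12 months 20 of 8959 genes were called (0.223%), 12 higher (0.134%) and 8 lower (0.0893%) in 3xTg-AD, and 656 had an unadjusted p under 0.05. None of the 20 overlapped between genotypes, against 11.8% of all genes tested whose libraries did not overlap. Without replicate 6 the count was 37, of which 13 were among the 20. Cfap54, Rnf152, Sema3a, Fhit, Thsd4, Slc15a2 and Sav1 were called without each library in turn. The other 13 were each lost without at least 1 library (edgeR adjusted p = 0.0501 to 0.319 over these losses). Zfp846 was lost without replicate 4 or 6, Cdh4 without 2 or 12, Gm15594 without 2 or 8, Kcns3 without 6 or 12 and Cthrc1 without 10. Hs6st3 was lost without 2, 8 or 12, Stxbp6 without 2, 4, 10 or 12, Adamtsl1 without 2, 4, 8 or 10 and Mgat4c without 2, 6, 8 or 12. Arhgef33, Fndc1 and Mri1 were called in 1 of 6 such fits and Sap130 in 0 of 6. With DESeq2, 7 of the 20 were called: Cfap54, Fhit, Mgat4c, Rnf152, Sema3a, Slc15a2 and Thsd4.

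Of the same 20 genes, 9 were also called in the nuclei that are no members (1.31% of all genes tested) and 7 in the somatostatin nuclei (0.363%). All but Stxbp6 went the same way in the first and all 20 in the second. The test of the difference from the somatostatin nuclei called 0 of the 20 with edgeR at an adjusted p below 0.05 (0.0184% of all genes tested). At an unadjusted p under 0.05 it held 9 of the 20, beside 5.14% of all genes. The test of the difference from the nuclei that are no members called 7 of the 20 (0.634% of all genes tested). These were Cfap54, Sema3a, Thsd4, Stxbp6, Hs6st3, Arhgef33 and Adamtsl1. The 20 genes were chosen on the same counts of the members, which favours a larger difference there. The shares over all genes are therefore no fair measure for them.

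Fhit, a large gene of a fragile site whose protein cleaves dinucleoside polyphosphates (chromosome 14, 9550092 to 11162035), held 409, 426 and 394 CPM in 3xTg-AD and 146, 226 and 149 CPM in WT. The log2 fold change was 1.27 ± 0.16 (SE; edgeR adjusted p = 3.5e-05). At 6 months it was 0.53 ± 0.20 (SE) and was not called (edgeR adjusted p = 0.666). Slc15a2, a peptide transporter, rose by a log2 fold change of 3.35 ± 0.51 (SE; edgeR adjusted p = 0.0011), from 2, 5 and 0 UMIs in WT to 20, 20 and 24 UMIs.

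Thsd4, a thrombospondin-repeat protein of the extracellular matrix, held 17.3, 8.55 and 9.46 CPM in 3xTg-AD and 69.4, 66.7 and 48.8 CPM in WT. It fell by 2.38 on the log2 scale (SE 0.30; edgeR adjusted p = 4.1e-05), and the fall was larger than in the nuclei that are no members (difference -1.50, edgeR adjusted p = 0.00017). Thsd4 was chosen on the same counts of the members, which favours a larger fall there. Against the somatostatin nuclei the difference was -1.96 and did not pass the test (edgeR adjusted p = 0.25). Sav1, a scaffold of the Hippo pathway, fell by 1.75 (SE 0.28; edgeR adjusted p = 0.0020), and the call was lost with DESeq2 (DESeq2 adjusted p = 0.064). Kcns3 was the 1 gene called among 118 genes listed for neuronal function and the construct, of which 87 were tested. It encodes a modifier subunit of Kv2 potassium channels that marks parvalbumin cells, and held 25.3, 12.8 and 34.7 CPM in 3xTg-AD and 55.1, 58.9 and 69.9 CPM in WT. It fell by 1.37 on the log2 scale (SE 0.26; edgeR adjusted p = 0.017), and the call was lost with DESeq2 (DESeq2 adjusted p = 0.35) and without replicate 6 or 12 (edgeR adjusted p = 0.080 and 0.056). It was also lost without the cluster of 65 nuclei led by Lhx8 (log2 fold change -1.16, edgeR adjusted p = 0.12), in which Kcns3 stood at 7.08 CPM against 47.5 CPM in the other members. Outside the members Kcns3 had a log2 fold change of -1.12 in the nuclei that are no members, where it was called (edgeR adjusted p = 0.040). In the somatostatin nuclei it was -1.38 and not called (edgeR adjusted p = 0.16). The members differed from these sets by -0.24 and 0.08, and neither difference passed the test.

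**Figure D4:**
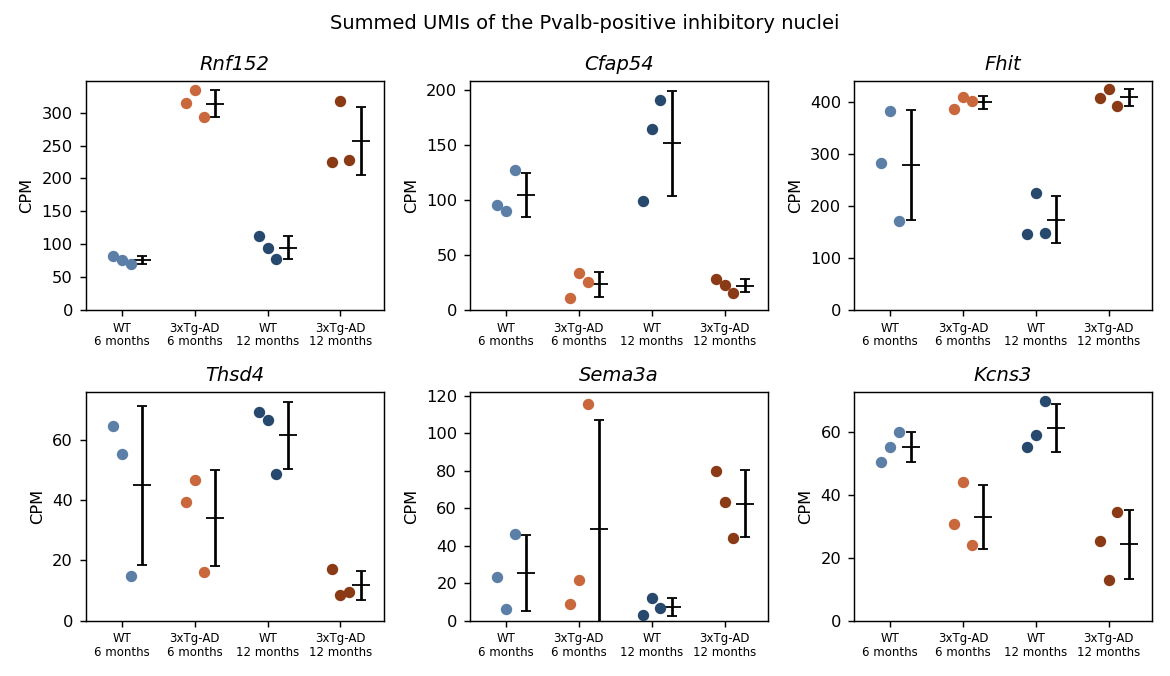
CPM of 6 genes in the summed members of each library (points, 3 per group), with mean and SD as bars, on axes that start at 0, where the Sema3a bar of 3xTg-AD at 6 months is cut off. Rnf152 is high and Cfap54 low in the 6 3xTg-AD libraries, and at 12 months Fhit and Sema3a are high and Thsd4 and Kcns3 low in 3xTg-AD.

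Sema3a, a secreted guidance cue of the perineuronal net (chromosome 5, 13125414 to 13602565), held 79.8, 63.0 and 44.1 CPM in 3xTg-AD and 3.06, 12.2 and 6.59 CPM in WT at 12 months. The log2 fold change was 3.12 ± 0.35 (SE; edgeR adjusted p = 1.3e-05). At 6 months it held 8.63, 21.4 and 116 CPM against 23.2, 6.02 and 46.4 CPM, and the groups overlapped. Sema3a was also a leading gene of the cluster of 65 nuclei led by Lhx8, where it stood at 200 CPM against 17.5 CPM in the other members.

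The nuclei of that cluster at 12 months numbered 13, 5 and 10 in 3xTg-AD (replicates 2, 6 and 10) and 0, 2 and 3 in WT (replicates 4, 8 and 12). At 6 months they numbered 3, 5 and 4 in 3xTg-AD and 10, 4 and 6 in WT. Without the cluster 7 of 8801 genes were called at 12 months, all of them among the 20: Cfap54, Rnf152, Fhit, Thsd4, Slc15a2, Sav1 and Zfp846. Sema3a then fell below the filter on low counts. Mgat4c and Stxbp6 were called with log2 fold changes of 0.70 and 0.82, and without the cluster these were 0.35 and 0.57 (edgeR adjusted p = 0.75 and 0.39). Mgat4c stood at 2089 CPM in the cluster and 648 CPM in the other members, and Stxbp6 at 521 and 127 CPM. Cdh4 stood at 270 and 106 CPM and Hs6st3 at 1816 and 602 CPM, and without the cluster their log2 fold changes were 0.75 and 0.72 (edgeR adjusted p = 0.12 and 0.20). At 6 months the same step left 11 called genes, the same 11.

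The other genes called at 12 months were Cdh4, Gm15594, Cthrc1, Hs6st3 and Sap130, higher in 3xTg-AD, and Arhgef33, Fndc1, Adamtsl1 and Mri1, lower. Hs6st3, a heparan sulfate sulfotransferase, held 1156, 892 and 704 CPM against 591, 561 and 359 CPM, a log2 fold change of 0.88 ± 0.19 (SE; edgeR adjusted p = 0.040). Adamtsl1, a matrix protein, held 9.31, 17.1 and 11.03 CPM against 44.9, 58.9 and 22.4 CPM and fell by 1.70 (SE 0.36; edgeR adjusted p = 0.038). Cdh4, the adhesion protein R-cadherin, rose by 0.87 (SE 0.16; edgeR adjusted p = 0.013).

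The 118 genes listed for neuronal function and the construct were read as a whole. At 6 months 83 were tested and 0 called by edgeR, with 12 at an unadjusted p under 0.05 (14.5%, beside 5.81% of all genes tested). At 12 months 87 were tested and 1 called (1.15%), with 14 at an unadjusted p under 0.05 (16.1%, beside 7.32% of all genes tested). At 12 months the median log2 fold change was 0.00 over 12 fast-spiking ion channels, -0.04 over 8 genes of fast transmitter release and the axon, 0.18 over 8 genes of GABA synthesis and transport and -0.03 over 8 genes of the perineuronal net, beside 0.0005 over all genes tested. At 6 months these medians were 0.09, -0.02, 0.04 and -0.25, beside 0.0038 over all genes. Of 6 transcription factors of the medial ganglionic eminence tested at 6 months 0 were called by edgeR, with 3 at an unadjusted p under 0.05. The log2 fold changes were 0.66, 0.81 and 0.72 for Sox6, Satb1 and Maf, which did not pass the test (edgeR adjusted p = 0.723, 0.781 and 0.522), 0.36 for Mef2c, -0.09 for Dlx1 and -0.35 for Etv1. WT replicate 3, which had no nucleus of the Sox6 and Maf clusters, belonged to that comparison. The values of these genes without that replicate are not given here.

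With age, 1 of 9137 genes was called in WT (0.0109%) and 2 of 8485 in 3xTg-AD (0.0236%), 1 higher (0.0118%) and 1 lower (0.0118%). The ages did not overlap for these 3 calls, which was also so for 10.4% of all genes tested in WT and 9.5% in 3xTg-AD. Adarb2, an RNA-editing enzyme relative that marks interneurons of the caudal ganglionic eminence, held 671, 698 and 620 CPM at 12 months and 1360, 1226 and 1094 CPM at 6 months in WT. It fell by 0.89 on the log2 scale (SE 0.14; edgeR adjusted p = 0.033). Adarb2 stood at 4562 CPM in the cluster led by Lhx8, and without that cluster the log2 fold change was -0.44 (edgeR adjusted p = 0.97). The call was also lost without replicate 3, 7, 8 or 12, and that of Epha3 without replicate 1, 2, 5 or 6 (edgeR adjusted p = 0.083 to 0.24). In 3xTg-AD, AC149090.1 rose by 1.76 (SE 0.19; edgeR adjusted p = 0.00011) and Epha3, an ephrin receptor, fell by 1.25 (SE 0.21; edgeR adjusted p = 0.030). The counts with age were 0 to 4 in WT and 1 to 4 in 3xTg-AD when 1 library was left out; in WT the count was 0 without replicate 7 or 12, 2 without replicate 3, 3 without replicate 11 and 4 without replicate 4, and in 3xTg-AD it was 4 without replicate 9 and 1 without replicate 1, 2, 5 or 6.

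The members were then compared with 1791 somatostatin nuclei, which met the same rule with Sst present and Pvalb absent, in 12 libraries with the library as a block. Calls here needed a log2 fold change beyond 1 in either direction, and genes used in the rule were left out. Of 11360 genes 824 were called (7.25%), 315 higher (2.77%) and 509 lower (4.48%) in the members. The 20 genes named by smallest adjusted p went the same way in 12 of 12 libraries. They were chosen by a fit of these same libraries, which favours such agreement, so it is a description and no further test.

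Fast-spiking ion channels, genes of fast release and perineuronal net genes included many that were higher in the members. Of 12 fast-spiking ion channels tested 6 rose and 0 fell, with a median log2 fold change of 1.02 beside 0.0037 over all genes. Kcna1, a low-threshold potassium channel of axons, ranged from 101 to 173 CPM (median 134) in the members and from 26.7 to 69.7 CPM (median 47.3) in the somatostatin nuclei, a log2 fold change of 1.45 ± 0.081 (SE; edgeR adjusted p = 4.4e-14). Scn4b, a sodium channel subunit that allows resurgent current, rose by 2.61 (SE 0.27; edgeR adjusted p = 9.9e-09). In the Sox6 and Maf clusters Kcna1 stood at 150 CPM and Scn4b at 7.77 CPM. The single Six3 clusters ranged from 54.7 to 204 CPM for Kcna1 and from 2.10 to 36.2 CPM for Scn4b.

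Among 8 genes of fast transmitter release and the axon 4 rose and 0 fell (median 1.04). Syt2 ranged from 124 to 248 CPM (median 190) in the members and from 19.4 to 42.0 CPM (median 31.6) in the somatostatin nuclei, a log2 fold change of 2.57 ± 0.082 (SE; edgeR adjusted p = 1.5e-18). The ranges did not overlap. The neurofilament genes Nefm and Nefh rose by 1.90 and 1.90, and Vamp1, a vesicle protein of fast synapses, by 1.12. In the Sox6 and Maf clusters Syt2 stood at 142 CPM and Nefm at 27.6 CPM. The single Six3 clusters ranged from 16.8 to 316 CPM for Syt2 and from 18.9 to 159 CPM for Nefm.

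Perineuronal net genes rose in 4 of 8 tested and fell in 0 (median 0.81). They were Acan, which encodes aggrecan, the main proteoglycan of the net (log2 fold change 1.98 ± 0.24, SE; edgeR adjusted p = 1.4e-07), Bcan (1.55), and the link proteins Hapln1 (2.01) and Hapln4 (1.51). Ppargc1a, a regulator of mitochondrial biogenesis that parvalbumin cells express strongly, rose by 1.24, and Gabrd, a GABA receptor subunit outside synapses, by 1.90.

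Immediate-early genes and neuropeptide genes were lower in the members. Of 7 immediate-early genes tested 5 fell and 0 rose (median -2.22): Fos by 2.94, Fosb by 3.75, Junb by 2.31, Egr1 by 2.22 and Npas4 by 1.36. Egr1 ranged from 1.32 to 14.3 CPM in the members and from 19.2 to 52.7 CPM in the somatostatin nuclei. Of 6 neuropeptide and calcium-binding genes 5 fell, among them the opioid peptide gene Penk by 1.83 (edgeR adjusted p = 6.3e-06) and Nos1, the enzyme of nitric oxide synthesis, by 2.84. Npy, the neuropeptide Y gene, changed more than either (edgeR adjusted p = 1.3e-12), with 0 to 15.8 CPM (median 3.27) in the members and 18.0 to 201 CPM (median 60.9) in the somatostatin nuclei. Gria1, an AMPA receptor subunit, fell by 1.31 and Elfn1, which sets facilitating inputs onto somatostatin cells, by 1.44. The cluster kinds differed between the 2 sets, since Six3 had a median of 88.9 CPM in the members and 29.0 CPM in the somatostatin nuclei. The part of that difference in these values was not tested.

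**Figure D5:**
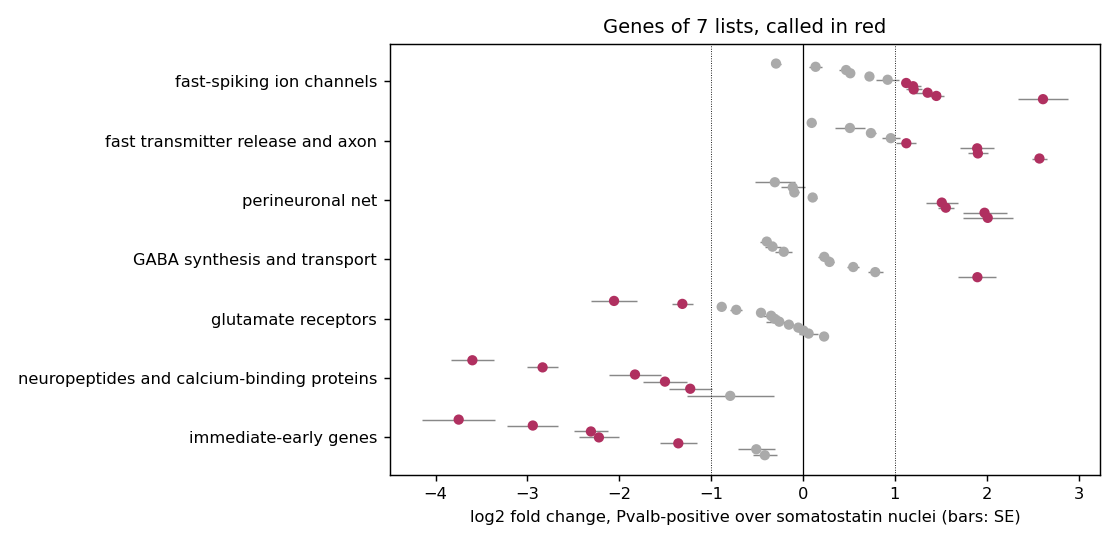
log2 fold change with SE of each gene of 7 lists, Pvalb-positive inhibitory nuclei over somatostatin nuclei in 12 libraries, called genes in red and dotted lines at -1 and 1. The called fast-spiking channel, transmitter release and perineuronal net genes lie to the right, with 1 channel gene and the net genes Vcan, Ncan and Tnr left of 0 and not called, and the immediate-early and neuropeptide genes lie to the left.

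Against 304 Vip nuclei, which held Vip and neither Pvalb nor Sst, 878 of 9110 genes were called (9.64%), 400 higher (4.39%) and 478 lower (5.25%) in the members. The lower genes include Vip, which chose the nuclei of that set. Syt2 rose by 3.06, and 7 of 8 genes of fast transmitter release and the axon and 5 of 11 fast-spiking ion channels rose, with 0 of either list lower. Hmcn1, a matrix protein, held 2002 UMIs in the members and 3 in the Vip nuclei (ratio 146, exact 95% interval 49.7 to 706). It was also a leading gene of the Six3 cluster of 135 nuclei, at 601 CPM against 140 CPM in the other members. The part of the cluster kinds in the differences from the Vip nuclei was not tested. The strongest lower genes included Cnr1, the cannabinoid receptor of CCK and Vip interneurons, with a median of 20.1 CPM in the members and 249 CPM in the Vip nuclei, and Synpr, a synaptic vesicle protein, with 29.5 and 917 CPM. Crh fell by 5.91 and Cck by 2.85, both peptides of interneurons from the caudal ganglionic eminence. Among immediate-early genes Fos, Junb and Egr1 fell and Arc rose. Vip nuclei held 2213710 UMIs in all against 10151509 for the members.

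Within the members, the 103 nuclei with an Lhx6 UMI were compared with the 836 without, again with the library as a block. Of 8206 genes 391 were called (4.76%), 187 higher (2.28%) and 204 lower (2.49%) with Lhx6. The 20 named genes went the same way in 12 of 12 libraries, which their choice by a fit of these libraries favours.

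Transcription factors of the medial ganglionic eminence were higher with Lhx6, 7 of 8 tested and 0 lower (median log2 fold change 2.16 beside -0.02 over all genes). Sox6 ranged from 570 to 1043 CPM (median 684) with Lhx6 and from 22.4 to 262 CPM (median 112) without, a log2 fold change of 2.76 ± 0.21 (SE; edgeR adjusted p = 5.1e-10). Satb1 rose by 2.64, Mef2c by 2.27 and Etv1 by 2.24. Of 11 fast-spiking ion channels 2 rose, among them Kcnc2 by 1.47. Of 8 genes of GABA synthesis and transport 5 rose, among them the receptor subunit genes Gabrb2 by 1.22 and Gabrd by 1.09. Tac1 rose by 2.16, and Gria1 by 1.95.

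Several of the genes lower with Lhx6 were leading or marker genes of the Six3 clusters. Six3 held 2 UMIs in the Lhx6-positive and 956 in the Lhx6-negative members (ratio 75.0, exact 95% interval 20.7 to 621). Meis2 fell by 5.51 (SE 0.28; edgeR adjusted p = 2.2e-13) and Grm3, a metabotropic glutamate receptor, by 3.84 (SE 0.16; edgeR adjusted p = 4.5e-15), from a median of 775 CPM without Lhx6 to 53.9 CPM with it. Neuregulin 1, a ligand of ErbB4, fell by 1.25 (edgeR adjusted p = 0.00089). For Syt2 and Kcnc1 the medians were 221 and 355 CPM with Lhx6 and 179 and 264 CPM without, and neither was called (log2 fold changes 0.18 and 0.39). The nuclei with Lhx6 came from 2 kinds of cluster mainly, the Sox6 and Maf clusters and the cluster led by Lhx8, which differ in Maf (89 and 9.23% of nuclei).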

How the data were processed

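UMI counts per gene and nucleus of 12 libraries were deposited by the authors as filtered 10x matrices made with Cell Ranger 6.1.1 on mm10 (GRCm38). No normalization had been applied to them, and the study removed ambient RNA only afterwards. The members and gene lists were chosen with earlier results of these data known. Members were clustered with scanpy 1.11.5 and leidenalg 0.10.2 (2000 variable genes, 30 components, 20 neighbours, resolution 0.7). A cluster was named where at least 3 markers were in 25% of its nuclei and enriched by a log2 of 1 or more over nuclei that are no members (pseudocount 5 CPM), unless its leading genes or depth went against the name. The enrichment limit and the grouping into kinds were chosen after the clusters were seen. Doublets were marked with Scrublet at an expected share of 8%.

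UMIs were summed per library and set of nuclei. edgeR 4.0.16 then dropped genes with few counts (filterByExpr), scaled the sums (TMM) and applied its two-sided quasi-likelihood test with Benjamini-Hochberg adjustment over all genes tested. CPM values are UMIs of a gene over all UMIs of the set, on the usual counts-per-total scale. DESeq2 1.42.0 was an alternative. Shares were compared with exact permutation tests over libraries. Genes named are all called genes between genotypes, 10 per direction for other comparisons, and members of the lists, some of which are not reported here. The mice were separate animals. Gene positions are from GENCODE vM21 on GRCm38, and no position matched AC149090.1. The scripts were tested on simulated data.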

Additional observations from a re-analysis of the deposited data

Results flagged for a closer look

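Among the 6 libraries of 6 months the share of members was 0.899% in WT replicate 3, far from the other 5, which ranged from 0.319 to 0.488%. Among the 6 libraries of 12 months, and among the 6 of 3xTg-AD, the share of retained nuclei that were members with an Lhx6 UMI was 0.106% in 3xTg-AD replicate 2, far from the rest. Chance marks about 1 in 20 groups in this way. The log2 fold change of 3xTg-AD over WT changed from 6 to 12 months by 2.54 for AC149090.1 and by 2.46 for Zfp943, by the test of the interaction.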

How the results depend on the processing

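No paired analysis was possible because the groups share no replicate numbers. Among the share tests and the counts of called genes, 161 alternative values kept their direction and call or stayed within 1.5 times, 65 counts moved further, 5 shares lost their p under 0.05 and 8 shares changed sign. Of the values for single genes 1473 kept their call, 190 lost it and 1 changed sign (Adarb2 with age in WT, 0.60 in the Six3 clusters alone). Where no cause is named, it was not tested.

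With Lhx6 required the genotype difference in share was 0.00185 points over both ages and 0.0186 points at 12 months. The change of the genotype difference with age was -0.0799 points with nuclei thinned to 2000 UMIs and -0.776 points as a share of inhibitory nuclei. Without 1 library the shares differed by -0.218 to -0.130 points between genotypes, by -0.285 to -0.0638 at 6 months, by -0.203 to -0.0917 at 12 months and by -0.0114 to 0.105 with age (-0.00578 without replicate 8, -0.0114 without replicate 9). The change with age ranged from -0.102 to 0.119 (-0.102 without replicate 3, -0.00439 without replicate 9).

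Called genes between genotypes numbered, at 6 and 12 months, 45 and 83 with no filter on low counts, 7 and 8 with DESeq2, 3 and 2 with at least 2 Pvalb UMIs, 0 and 0 with Lhx6 required, 19 and 7 in the Six3 clusters alone and 2 and 6 in the other clusters alone. Without the cluster led by Lhx8 there were 7 at 12 months. With age there were 40 in WT and 19 in 3xTg-AD with no filter. In WT there were 0 with at least 2 Pvalb UMIs, with Lhx6 required, in the Six3 or the other clusters alone, in one fit of 12 libraries and without the cluster led by Lhx8. In 3xTg-AD there were 6 in the Six3 clusters alone, 1 with DESeq2, with thinned counts, without doublets, without the clusters with glial markers, in the other clusters alone and without the cluster led by Lhx8, and 0 with at least 2 Pvalb UMIs, with Lhx6 required and in one fit. The interaction gave 23 with no filter, 1 with thinned counts, with at least 2 Pvalb UMIs, with Lhx6 required and without the clusters with glial markers, and 0 with DESeq2 and in the Six3 clusters alone. With no filter 1256 genes differed from the somatostatin nuclei and 603 between members with and without Lhx6. With thinned counts 564 differed from the Vip nuclei and 228 with Lhx6. With no library block the 3 counts were 479, 483 and 245, from fits that tested fewer genes. Without 1 library the counts were 7 to 15 at 6 months, 19 to 37 at 12 months, 0 to 4 with age in WT, 1 to 4 in 3xTg-AD, 0 to 2 for the interaction, 775 to 836 against somatostatin nuclei, 851 to 889 against Vip nuclei and 356 to 400 with Lhx6. The choices of clusters were made after seeing the data.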

Other observations

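Among the genes called at 6 months some stood apart in single WT libraries of 12 months, and did so in other nuclei of the same mice too. Ush1c held 73.9 CPM in the members of WT replicate 12 and 0 CPM in those of replicates 4 and 8, and in the nuclei that are no members it held 4.58 CPM against 0.507 and 0.690 CPM. AC149090.1 held 176 CPM in the members of WT replicate 8 against 671 and 462 CPM in replicates 4 and 12, and 226 CPM against 683 and 534 CPM in the nuclei that are no members. Pla2g4e held 13.3 CPM in the members of WT replicate 8 against 61.3 and 43.5 CPM, and 27.8 CPM against 54.6 and 43.5 CPM in the nuclei that are no members. These genes were chosen after their values were seen.

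The genotype difference at 12 months was compared between the members and the somatostatin nuclei of the same mice, with the library as a block. The test of the difference called 2 of 10876 genes with edgeR, Nell1 and Mecom. Nell1, a secreted protein, had a log2 fold change of -0.48 ± 0.17 (SE) in the members, which was not called (edgeR adjusted p = 0.434), and of 1.10 ± 0.16 (SE) in the somatostatin nuclei (edgeR adjusted p = 0.0079). At 6 months 0 of 10664 genes were called by the same edgeR test, with 492 at an unadjusted p under 0.05.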
